A study of Homo sapiens with 6 samples.

Results

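The S100 calcium-binding proteins were followed in H1155 cells through 10 genes of the family: S100A2, S100A3, S100A4, S100A6, S100A10, S100A11, S100A13, S100A16, S100B and S100P. They are 10 of the 58735 genes in the count table, and they were picked by name, with their difference between the groups already known. S100A1 and S100A5, which also have reads in these cells, were not picked and are described after them. What the 10 genes did between the groups is therefore given as a description, without a test.

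H1155 is a lung cancer cell line of the large cell type with neuroendocrine features, and its wild-type cells (WT) express the transcriptional repressor GFI1. The other group, GFI1-KO, had been edited by CRISPR/Cas9 with a pair of guide RNAs to the GFI1 promoter region and sorted as monoclonal clones, so that a difference between the groups may also be a difference between clones. Both groups were untreated, and each had 3 RNA-Seq libraries made from poly-T–selected RNA. The labels do not say whether the 3 libraries of a group came from separate cultures or clones, so the standard errors and p-values measure only the spread between these libraries.

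S100 proteins are small proteins with a pair of EF-hands, the helix-loop-helix fold that binds calcium. Most form dimers inside the cell, open a hydrophobic face when calcium binds, and then attach to a target such as an annexin, a myosin heavy chain or a scaffold protein. Some are also released and bind receptors on other cells, with AGER (RAGE) the best known of these. Most human S100 genes lie side by side on chromosome 1q21, within the epidermal differentiation complex, and S100A4, S100A6, S100A10 and S100P are known from work on cancer cell movement and spread.

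Library totals lay between 14882914 and 17692882 counts, at which 3 counts, taken as the smallest level a library can show, equal 0.170 to 0.202 CPM. Of all genes, 17514 passed the filter on low counts and were tested with edgeR's quasi-likelihood test. At an adjusted p of at most 0.05, 72.4% of them differed, 36.5% with the libraries labelled GFI1-KO higher and 35.9% with them lower. GFI1 itself had 153, 106 and 125 counts in the WT libraries and 174, 188 and 170 in the GFI1-KO libraries. Its log2 fold change was 0.31 (SE 0.12, adjusted p = 0.0273), or 0.21 (adjusted p = 0.150) once GC content and gene length had been corrected for. The count of the targeted gene was thus not lower under the GFI1-KO label, and every direction below rests on the labels. Among the neuroendocrine markers, SYP (synaptophysin) rose from 4182, 3770 and 4009 counts in WT to 10106, 10562 and 10241 in GFI1-KO (edgeR adjusted p = 3.0e-21), and NEUROD1 fell from 5749, 5256 and 5727 counts to 4833, 4622 and 4721 (adjusted p = 2.7e-11), so that these markers had no common direction. The markers of other cell types that could be present or express S100 genes summed to at most 0.956 CPM for squamous keratinocytes (KRT14 at 0 counts), 4.78 CPM for leukocytes (CD3E at 0) and 30.4 CPM for endothelium. Fibroblast markers summed to 190.5 to 196 CPM in WT and 125 to 130 CPM in GFI1-KO (DCN at 0), and lung epithelial markers to 228 to 240 CPM and 268 to 297 CPM. The latter sum is mostly KRT8 and KRT18. Of its 5 tested genes 2 rose and 2 fell, against 36.5% and 35.9% of all tested genes. With the GC and length correction 1 was higher and 3 lower, against 35.5% and 25.9%. The 2 that fell without it were the epithelial adhesion genes EPCAM (61, 51 and 78 counts in WT, 10, 22 and 13 in GFI1-KO) and CDH1 (35, 18 and 24 against 10, 6 and 1). Only its WT counts carried CDH1 through the filter on low counts. Of the markers of Schwann cells, glia and melanocytes, SOX10 had 0 to 6 counts in WT and 6 to 14 in GFI1-KO. The part of these shifts in the S100 values was not tested, and in RNA from whole cultures fewer expressing cells and less RNA per cell cannot be told apart.

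The S100 genes differ in what lies just before their starts. The following stretches, from the RefSeq promoter table on GRCh38.p14 (250 bases before to 50 after the start), are shown because they hold the only TATAAA and TGANTCA matches among the members and 2 of the GC-rich windows. They are written 5′ to 3′ on the strand of the gene with the match in capitals. The S100A6 stretch ends in a further GGGCGG, left in lower case, that begins 79 bases before the start.
S100A4 (chr1:153545821-153545848, minus strand): cctggctggggTATAAAtaggtcagacc
S100P (chr4:6693839-6693866, plus strand): tgaggctgcctTATAAAgcaccaagagg
S100A2 (chr1:153565879-153565907, minus strand): ggagtgggctgTGACTCAcaggcatgtca
S100A3 (chr1:153549466-153549494, minus strand): ggaatcaggagTGAGTCActgggctagca
S100A6 (chr1:153536065-153536092, minus strand): gggtggggcgcGGGCGGgacttgggcgg
S100A10 (chr1:151994010-151994037, minus strand): cgctctgtctgGGGCGGgcgaggcctct

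Promoter windows were found for 9 of the 10 members, all but S100B, and were searched on both strands. TATAAA, the TATA box, occurred in 2 of the 9 windows against 11.5% of 35116 promoters, and in S100A4 and S100P it began 31 and 28 bases before the start, a place it takes in 2.30% of promoters. TGANTCA, the core of AP-1 sites, occurred in 2 of 9 against 7.71%. GGGCGG, the GC box, occurred in 5 of 9 against 45.0%, with 3 matches in S100A6, the last 2 of them overlapping each other and none overlapping another motif. AAATCA, the core bound by GFI1, occurred in 0 of 9 against 13.2%. The windows of S100A6 and S100A10 were 69.3% and 71.7% G and C, against a median of 58.7% over all promoters, and that of S100P was 56.0%. The members thus did not share any of these letters across all of their windows.

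All 10 members passed the filter on low counts. At the call rule above, which 72.4% of all tested genes met in either direction, 8 members were higher in GFI1-KO, against 36.5% of all tested genes, 1 (S100B) was lower, against 35.9%, and S100P was not called. The S100B call was lost without the filter, with DESeq2, at a threshold of 0.01 and without WT replicate 2, WT replicate 3, GFI1-KO replicate 1 or GFI1-KO replicate 3, each of which left 0 members lower. The groups did not overlap, with GFI1-KO higher, in 8 members, against 37.5% of all genes and 74.4% in either direction. The log2 fold change was at least 1 in 7 members, against 10.3% of all genes, and its median over the members was 1.57. Because the members were listed with this contrast known, these shares describe the list and carry no further weight. With the GC and length correction, the median over the members was 1.20, with 7 called higher, against 35.5% of all genes, and 1 lower, against 25.9%.

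**Figure D1:**
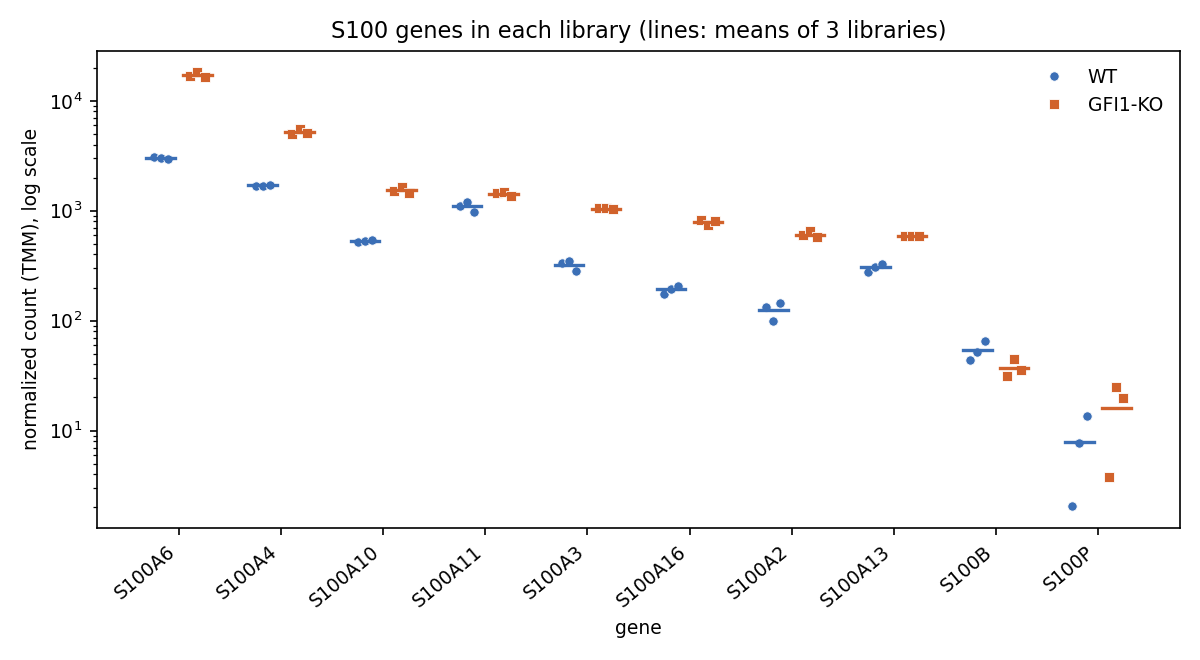
Normalized count (TMM, log scale) of each of the 10 S100 genes in the 3 WT and 3 GFI1-KO libraries, with points for libraries and short lines for group means. S100A6 is highest in both groups (mean 3034 in WT and 17187 in GFI1-KO), and the groups overlap only for S100B and S100P.

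S100A6 and S100A4 were the most abundant members in GFI1-KO. S100A6, or calcyclin, binds annexins and the ubiquitin ligase adaptor CACYBP, and S100A4, or metastasin, binds non-muscle myosin and is a known marker of motile and mesenchymal cells. Normalized counts, which are counts scaled to a common library size, are used from here on for single genes.

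S100A6 (chr1:153534599-153536244, minus strand) had normalized counts of 3103, 3015 and 2982 in WT and 16982, 18112 and 16466 in GFI1-KO. The lowest GFI1-KO library was thus far above the highest WT library. The means were 3034 ± 62.8 and 17187 ± 842 (SD, n = 3 libraries), a 5.66-fold higher level and a log2 fold change of 2.50 (SE 0.04), the largest of the 10 members. With the GC and length correction the log2 fold change was 1.90. An antisense transcript, BX470102.1, covers 3.81% of the exon bases of S100A6, and since the strand setting of the counting is not stated, reads there cannot be assigned to one strand.

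S100A4 (chr1:153543613-153550136, minus strand) had normalized counts of 1694, 1683 and 1731 in WT and 5027, 5529 and 5050.0 in GFI1-KO. Both groups were tight and far apart. The means were 1702 ± 25.3 and 5202 ± 284 (SD, n = 3), a 3.06-fold higher level and a log2 fold change of 1.61 (SE 0.04), or 1.23 with the correction.

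S100A10 and S100A11 are the annexin partners of the family. S100A10 (p11) forms a heterotetramer with annexin A2 at the plasma membrane, binds AHNAK and carries plasminogen activation at the cell surface, while S100A11 binds annexin A1. They are neighbours at the far end of the chromosome 1 cluster, and they differed in size of change.

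S100A10 (chr1:151982915-151994390, minus strand) had normalized counts of 523, 527 and 546 in WT and 1509, 1639 and 1449 in GFI1-KO. Its means were 532 ± 12.1 and 1533 ± 97.2 (SD, n = 3), 2.88-fold higher, with a log2 fold change of 1.53 (SE 0.06). Unlike the other members on chromosome 1, it kept this value, 1.52, with the GC and length correction, and its GC content of 47.5% was the lowest of the 10.

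S100A11 (chr1:152032506-152047907, minus strand) had normalized counts of 1099, 1212 and 975.1 in WT and 1434, 1487 and 1351 in GFI1-KO. The groups did not overlap but the gap was small. The means were 1095 ± 119 and 1424 ± 68.2 (SD, n = 3), 1.30-fold higher, with a log2 fold change of 0.38 (SE 0.06), the smallest of the members that were called higher. With the correction it was 0.09 (SE 0.05), and S100A11 was no longer called.

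S100A2, S100A3 and S100A16 had lower counts than S100A6 and S100A4 in both groups and were also higher in GFI1-KO. S100A2 is an epithelial S100 protein known to bind the tumour suppressor p53, S100A3 is known from the cuticle of the hair shaft, and S100A16 is a broadly expressed member with an atypical EF-hand.

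S100A2 (chr1:153561108-153567890, minus strand) had normalized counts of 134, 98.5 and 146 in WT and 596, 648 and 575 in GFI1-KO. The second WT library was the lowest of the 6. The means were 126 ± 24.7 and 606 ± 37.7 (SD, n = 3), 4.78-fold higher, with a log2 fold change of 2.26 (SE 0.10) and 1.98 with the correction. In both fits S100A2 and S100A6 were the members with the largest change, S100A6 leading without the correction and S100A2 with it.

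S100A16 (chr1:153606886-153613145, minus strand) had normalized counts of 176, 194 and 207 in WT and 820, 734 and 801 in GFI1-KO. This too was a wide gap. The means were 192 ± 15.4 and 785 ± 45.1 (SD, n = 3), 4.09-fold higher, with a log2 fold change of 2.03 (SE 0.08), or 1.54 with the correction.

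S100A3 (chr1:153547329-153549372, minus strand) had normalized counts of 332, 351 and 281 in WT and 1060, 1049 and 1027 in GFI1-KO. The 3 GFI1-KO libraries were nearly alike. The means were 321 ± 36.0 and 1045 ± 16.8 (SD, n = 3), 3.25-fold higher, with a log2 fold change of 1.70 (SE 0.07), or 1.16 with the correction.

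S100A13 (chr1:153618787-153631360, minus strand), which carries FGF1 out of cells by a route that bypasses the endoplasmic reticulum, had normalized counts of 274, 310.0 and 331 in WT and 593, 591 and 583 in GFI1-KO. The groups stood apart, with a smaller gap than for its neighbour S100A16. The means were 305 ± 28.4 and 589 ± 5.50 (SD, n = 3), 1.93-fold higher, with a log2 fold change of 0.95 (SE 0.07), or 0.61 with the correction. These values are uncertain, because in GENCODE release 44 another gene on the same strand covers 24.2% of the exon bases of S100A13 and S100A1 covers 10.6% on the opposite strand.

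S100B and S100P, which lie outside the cluster on chromosomes 21 and 4, are both known as ligands of AGER when secreted. S100B is a marker of Schwann cells, glia and melanocytes, and S100P is often raised in carcinomas. Both had fewer counts than the other members, and S100P was near the lower limit of what these libraries can measure.

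S100B (chr21:46598962-46605208, minus strand) had 43, 47 and 62 counts in WT and 33, 47 and 38 in GFI1-KO. The groups overlapped. The normalized means were 53.7 ± 10.6 and 37.2 ± 6.67 (SD, n = 3), with a log2 fold change of -0.53 (SE 0.23), or -0.77 with the correction. Its value thus lay on the opposite side from those of most members.

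S100P (chr4:6693069-6697170, plus strand) had 2, 7 and 13 counts in WT and 4, 26 and 21 in GFI1-KO. The 95% Poisson intervals, which cover counting error only, were 0.242 to 7.22 for the lowest library and 17.0 to 38.1 for the highest. The groups overlapped, with the first library of each group the lowest. The normalized means were 7.81 ± 5.80 and 16.1 ± 10.9 (SD, n = 3), a log2 fold change of 1.04 with an SE of 0.54, and leaving out 1 library at a time moved it between 0.57 and 1.71.

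**Figure D2:**
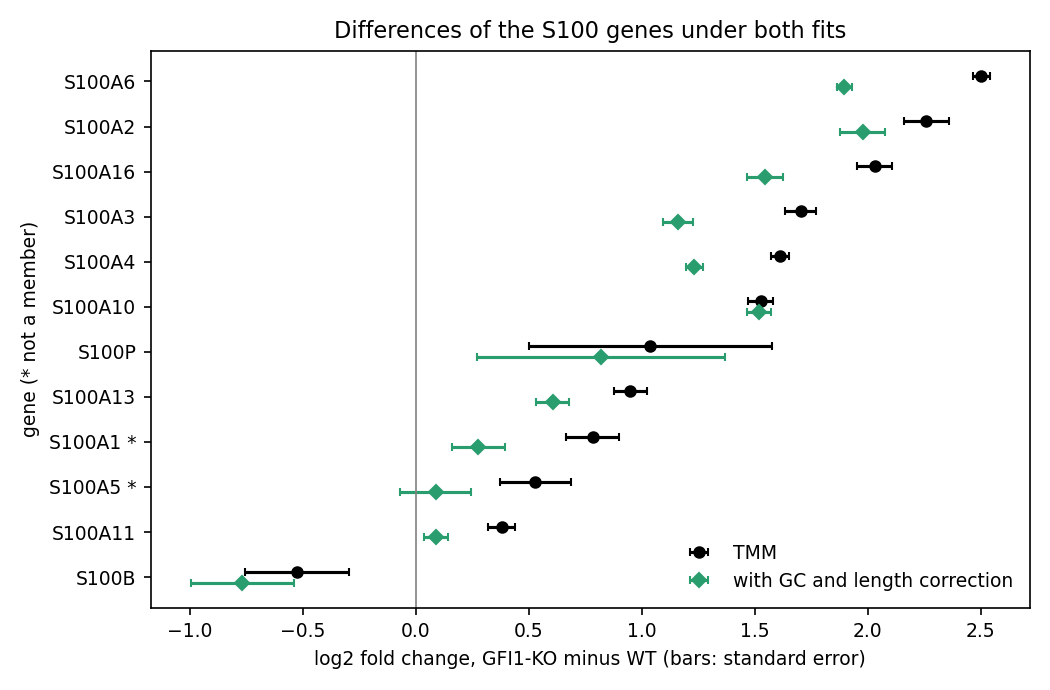
Log2 fold change (GFI1-KO minus WT) with its standard error for the 10 members and, with a star, S100A1 and S100A5, without (black) and with (green) the GC and length correction. S100A6 moved from 2.50 to 1.90 and S100A11 from 0.38 to 0.09, while S100A10 stayed at 1.53 and 1.52.

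The GC and length correction matters for the size of these values because, over 17415 tested genes, the log2 fold change rose with the GC content of the gene (Spearman's rho 0.57, and 0.03 after correction, across genes, which are not independent replicates). Whether that trend arose in the cells or in the libraries cannot be told apart here, so both sizes are given. The signs of all 10 members were the same in both fits.

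Levels of different genes were compared per length, as FPKM (the count divided by the deposited gene length and by the library total). In WT the order was S100A6 (190 FPKM), S100A4 (101), S100A11 (97.7), S100A10 (20.9), S100A3 (20.4), S100A13 (8.35), S100A16 (6.86), S100A2 (4.89), S100B (2.25) and S100P (0.371). The ranges of S100A4 and S100A11 overlapped, as did those of S100A10 and S100A3, and those of the other neighbours in this order did not. In GFI1-KO it was S100A6 (1062 FPKM), S100A4 (305), S100A11 (126), S100A3 (65.7), S100A10 (59.6), S100A16 (27.7), S100A2 (23.2), S100A13 (15.9), S100B (1.54) and S100P (0.754), with no overlap between neighbours. S100A13 had thus moved from above to below S100A16 and S100A2.

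**Figure D3:**
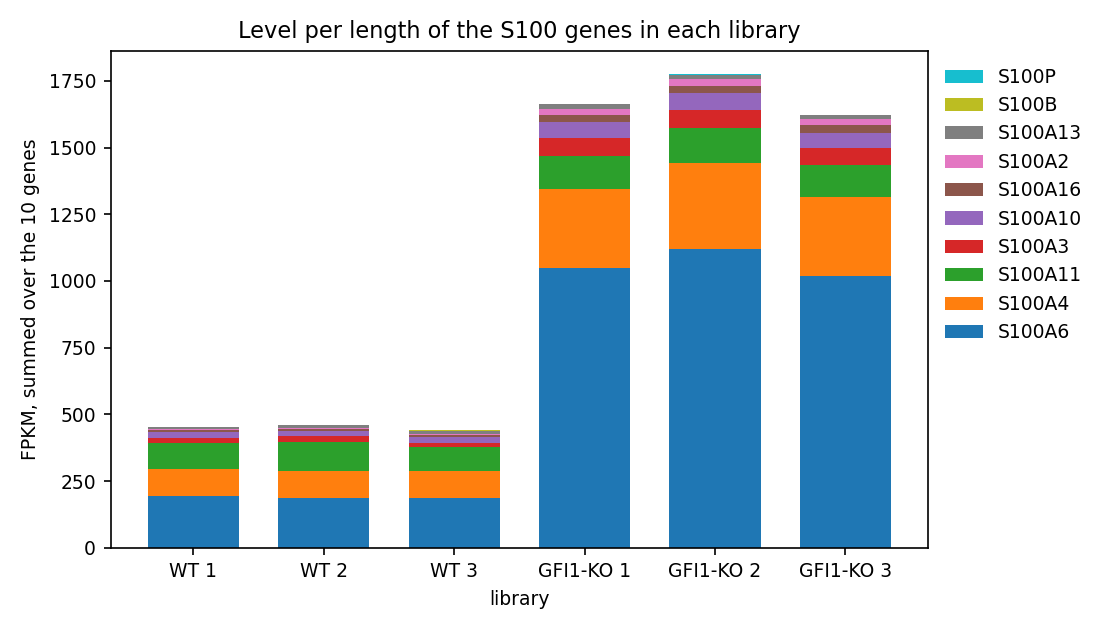
FPKM of the 10 S100 genes stacked for each of the 6 libraries, with colours for genes. The WT libraries reach 441 to 461 FPKM and the GFI1-KO libraries 1623 to 1774 FPKM, and most of the added height is S100A6.

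Summed over the members, the level was 455, 461 and 441 FPKM in WT and 1663, 1774 and 1623 FPKM in GFI1-KO. The members took 0.0442% to 0.0452% of all counts in WT and 0.164% to 0.179% in GFI1-KO. S100A6 made up 40.9% to 42.6% of the summed FPKM in WT and 62.7% to 63.1% in GFI1-KO, while the share of S100A4 went from between 21.6% and 23.3% to between 17.7% and 18.3%. The FPKM of S100A6 was 1.82 to 1.93 times that of S100A4 in WT and 3.44 to 3.57 times in GFI1-KO. The FPKM of S100A11 was 4.05 to 5.22 times that of S100A10 in WT and 2.06 to 2.16 times in GFI1-KO. The make-up of the S100 pool as well as its size thus differed between the groups.

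Among the 11 other S100 genes listed, 7 had no count in any library: S100A7, S100A7A, S100A7L2, S100A8, S100A9, S100A12 and S100Z. These include the calprotectin genes S100A8 and S100A9 of myeloid cells and stressed keratinocytes and the psoriasin gene S100A7 of skin. S100A14 had 2 counts in each WT library and 3, 5 and 8 in GFI1-KO, S100G had 0 to 4 counts, and neither passed the filter. The 2 that were tested were both called higher, against 36.5% of all tested genes. With the GC and length correction 1 was called higher, against 35.5%. S100A1, the S100 protein of heart and skeletal muscle, had normalized counts of 134, 108 and 128 in WT and 205, 201 and 233 in GFI1-KO. Its log2 fold change was 0.78 (SE 0.12, edgeR adjusted p = 1.3e-06), or 0.28 with the correction (adjusted p = 0.0454). Since S100A13 and 2 further transcripts cover 18.3% of its exon bases on the opposite strand, its reads and theirs cannot be told apart without strand. S100A5, known from olfactory neurons, had 65.5, 77.5 and 86.1 in WT and 100.1, 122 and 108 in GFI1-KO. Its log2 fold change was 0.53 (SE 0.16, edgeR adjusted p = 0.00393), and its call was lost with the correction (0.09, adjusted p = 0.646).

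**Figure D4:**
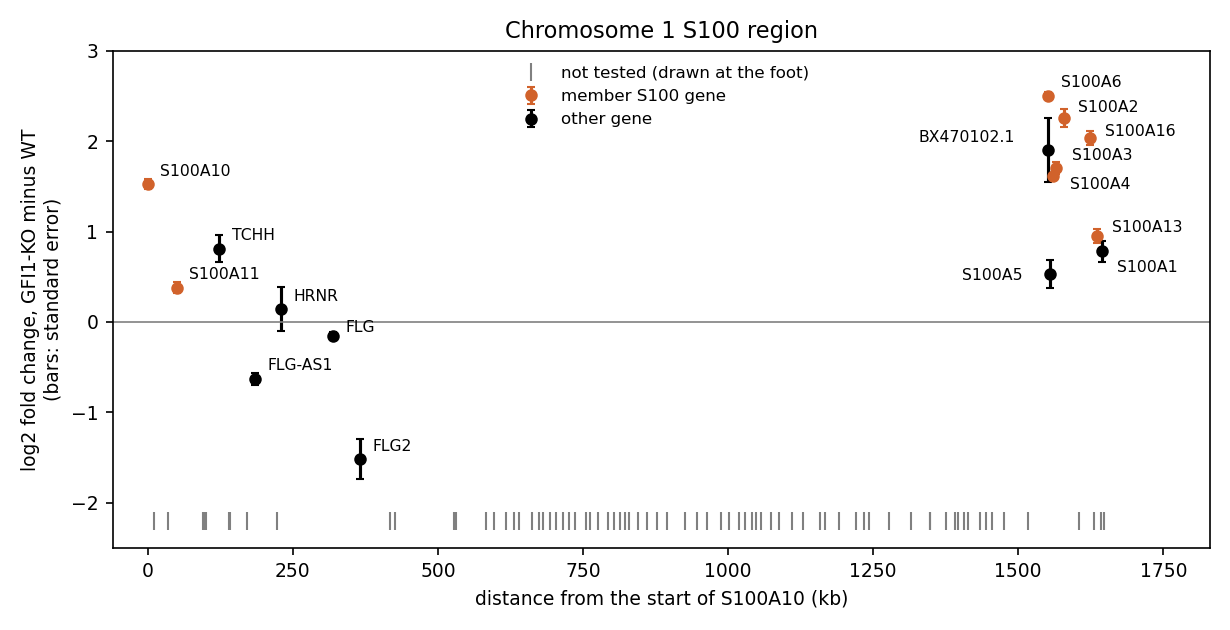
Log2 fold change (GFI1-KO minus WT, with standard error) of genes along the chromosome 1 S100 region against the distance in kb from the start of S100A10, with members in orange, other tested genes in black and untested genes as ticks at the foot. S100A10 and S100A11 stand at the left end and the other 6 members within the last 100 kb, where tested genes lie above 0, while FLG2 reaches -1.52 between them.

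The chromosome 1 region from S100A10 to S100A1 (chr1:151982915-153632039, 1649 kb) held 92 genes, 64 of them protein-coding and 8 of them members. Of these, 58 genes had no count in any library, among them most of the late cornified envelope and small proline-rich genes of the epidermis. Of the 84 genes that are not members, 8 were tested, of which 4 rose and 3 fell, against 36.5% and 35.9% of all tested genes. These 8 include the 2 tested other S100 genes and the 4 tested fused-type S100 genes described next. The counts of these lists therefore overlap and are not separate. The 8 had a median log2 fold change of 0.34, against 0.000495 over all genes in the test. With the correction it was 0.03, against 0.05. In that fit 3 were higher and 2 lower, against 35.5% and 25.9% of all genes. BX470102.1, the antisense transcript beside S100A6, is among the 4 that rose and is named here after its values were seen. It had 10, 4 and 9 counts in WT and 35, 33 and 29 in GFI1-KO (log2 fold change 1.90, SE 0.36). Only its GFI1-KO counts carried it through the filter on low counts, so no p-value is given for it. Its exons share bases with S100A6, so its rise cannot be told apart from that of S100A6 without strand.

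The fused-type S100 genes, which join an S100 domain to long repeats and build the skin barrier, moved in both directions. Of 7 listed, RPTN had no count, TCHHL1 and CRNN did not pass the filter, and 1 of the 4 tested rose and 2 fell, against 36.5% and 35.9% of all tested genes. TCHH (trichohyalin) rose from a normalized mean of 79.9 ± 9.69 to 140 ± 18.9 (n = 3, log2 fold change 0.81, edgeR adjusted p = 2.3e-05). FLG2 (filaggrin-2) fell from 73.7 ± 11.8 to 25.6 ± 1.78 (n = 3, log2 fold change -1.52, edgeR adjusted p = 8.6e-07), and FLG (filaggrin) fell from 1800 ± 107 to 1614 ± 76.3 (n = 3, -0.16, edgeR adjusted p = 0.00394). HRNR (hornerin) had a log2 fold change of 0.14 (edgeR adjusted p = 0.609). FLG-AS1 runs opposite to HRNR, FLG and FLG2, but not to TCHH. It also fell (-0.63, edgeR adjusted p = 3.8e-09), though not past the threshold with the correction (-0.07, adjusted p = 0.353).

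The binding partners and receptors of S100 proteins were read from a list of 36 genes, of which 31 were tested. Of these 12 rose, 15 fell and 4 did not pass, with a median log2 fold change of -0.16, against 36.5% higher and 35.9% lower over all tested genes. With the GC and length correction 16 were higher and 6 lower, against 35.5% and 25.9% of all genes in that fit. The median was then 0.09, against 0.05 over all genes. The list as a whole thus had no direction that held in both fits.

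**Figure D5:**
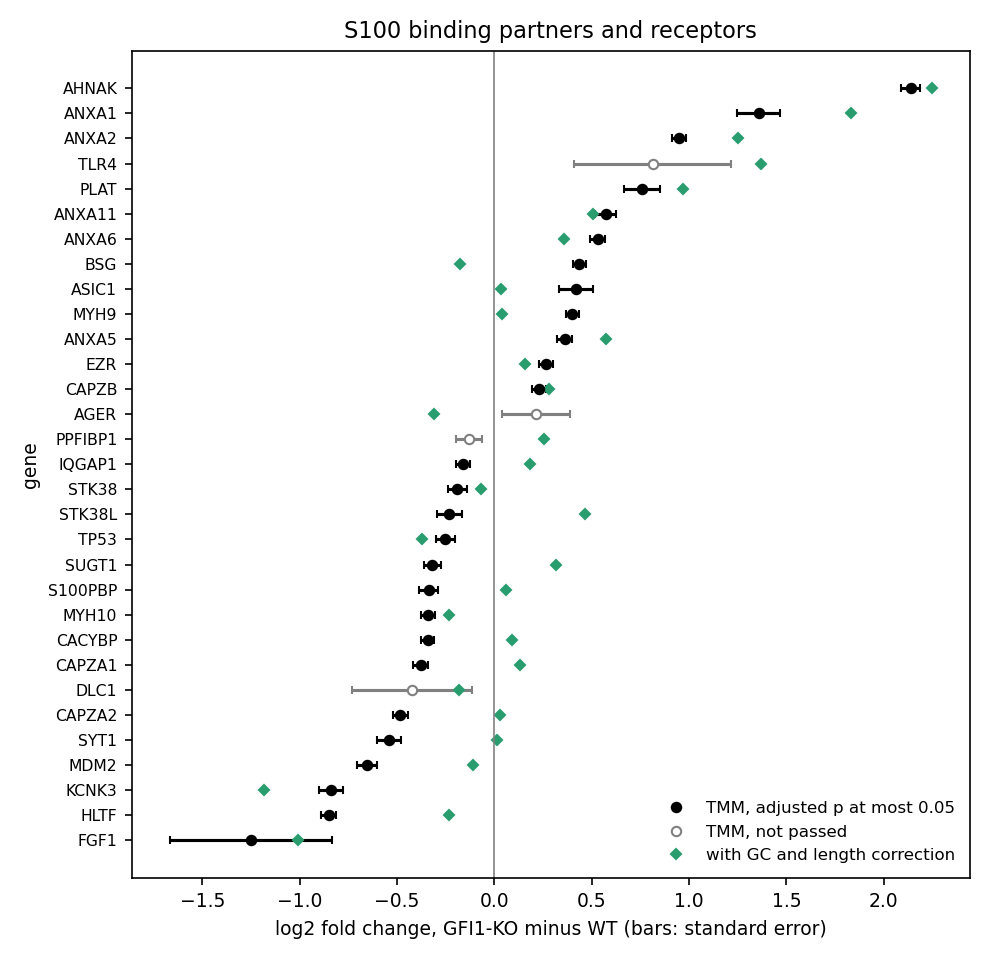
Log2 fold change (GFI1-KO minus WT) of the 31 tested partner and receptor genes, with filled points for an adjusted p of at most 0.05, open points for genes that did not pass, bars for standard errors and green diamonds for the value with the GC and length correction. AHNAK (2.14), ANXA1 (1.36) and ANXA2 (0.95) lead and FGF1 (-1.25) is last.

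AHNAK and the annexins named here rose in both fits. AHNAK, a giant scaffold protein that S100A10 and annexin A2 bind at the plasma membrane, had normalized counts of 1238, 1230 and 1486 in WT and 5725, 5905 and 5790 in GFI1-KO. It rose by a log2 fold change of 2.14 (SE 0.05, edgeR adjusted p = 8.4e-23), or 2.25 with the correction. ANXA2 (annexin A2) had 3741, 3619 and 3549 in WT and 6846, 7122 and 7087 in GFI1-KO, and rose by 0.95 (SE 0.03, edgeR adjusted p = 9.3e-19), or 1.25 with the correction. ANXA1 (annexin A1) had 105, 101 and 123 in WT and 277, 300 and 267 in GFI1-KO, and rose by 1.36 (SE 0.11, edgeR adjusted p = 1.8e-11). The groups did not overlap, with GFI1-KO higher, in each of these 3 genes, as in 37.5% of all tested genes (74.4% in either direction). ANXA6 (0.53, edgeR adjusted p = 1.9e-12) and ANXA11 (0.57, adjusted p = 3.1e-10), which binds S100A6, rose as well, and both kept their call with the correction.

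The proportion of partner to S100 gene differed between the groups. The FPKM of ANXA2 was 1.14 to 1.25 times that of S100A10 in WT and 0.760 to 0.855 times in GFI1-KO. The FPKM of ANXA1 was 0.0124 to 0.0188 times that of S100A11 in WT and 0.0288 to 0.0301 times in GFI1-KO. The FPKM of ANXA1 thus lay far below that of S100A11 in both groups. Where the ratio of ANXA2 to S100A10 lies relative to 1 depends on the deposited gene lengths, and with the GC and length correction the changes of the pair were closer, at log2 fold changes of 1.25 and 1.52.

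Apart from the annexins, the partners of S100A4, S100A6 and S100P named next had no common direction. MYH9, the non-muscle myosin IIA heavy chain that S100A4 binds, rose by 0.40 on the log2 scale (edgeR adjusted p = 1.3e-11), but by 0.04 with the correction (adjusted p = 0.292), and MYH10, the IIB heavy chain, fell by 0.34 (adjusted p = 1.4e-09) and by 0.23 with the correction. CACYBP, the calcyclin-binding protein, fell by 0.34 (edgeR adjusted p = 1.2e-09) while S100A6 was higher, and its sign turned with the correction (0.09). IQGAP1, a scaffold of the cell cortex that binds S100P, fell by 0.16 (edgeR adjusted p = 2.2e-04) and also turned (0.19). EZR (ezrin), a membrane-to-actin linker bound by S100P, rose by 0.27 (edgeR adjusted p = 1.8e-07) and by 0.16 with the correction.

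The other named partners fell or were not called. HLTF, a helicase-like factor, fell from a normalized mean of 4675 to 2594 (log2 fold change -0.85, edgeR adjusted p = 1.4e-16, and -0.23 with the correction), and KCNK3 (TASK-1), a potassium channel whose surface level depends on S100A10, fell from 853 to 476 (-0.84, adjusted p = 2.1e-12). MDM2, which several S100 proteins bind, fell by 0.66 on the log2 scale (edgeR adjusted p = 9.6e-12), and by 0.11 with the correction (adjusted p = 0.0512). FGF1 and SYT1, which leave the cell in a complex with S100A13, fell by 1.25 and 0.54 (edgeR adjusted p = 1.9e-08 for SYT1). SYT1 went to 0.01 with the correction. FGF1 had means of only 15.2 and 6.32 normalized counts. Only its WT counts carried FGF1 through the filter on low counts, so no p-value is given for it, though it is among the 15 partners that fell. S100PBP, which binds S100P, fell by 0.34 (edgeR adjusted p = 9.7e-07) and was at 0.06 with the correction. The receptor gene AGER had means of 70.6 and 81.8 normalized counts (log2 fold change 0.22, edgeR adjusted p = 0.270), and DLC1, which S100A10 and S100A11 bind, had 25.5 and 19.0 (-0.42, adjusted p = 0.219).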

How the data were processed

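Gene counts of 6 H1155 RNA-Seq libraries, 3 for WT and 3 for GFI1-KO, were analysed. The authors deposited raw counts per gene for each library, without normalization, beside gene length and positions in bases from their annotation. The paper's methods name Hisat2 and featureCounts on GRCh38, whereas the submitters' processing notes name Bowtie2, HTSeq and hg38. The gene annotation for counting, the strand setting and the rule for multi-mapping reads are not given in the sources used here. Overlaps were taken from GENCODE release 44, and words of 50 bases shared with other genes from its transcripts.

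From the counts, genes were tested with edgeR 4.0.16 in R 4.3.3 (TMM factors, filterByExpr, quasi-likelihood F test with trended dispersion, Benjamini-Hochberg adjustment over all tested genes, adjusted p at most 0.05, no fold minimum). The standard error of each log2 fold change was obtained from the change and the F statistic (change over root F). Normalized counts are scaled by TMM, and FPKM used the deposited gene length. The GC and length correction used offsets fitted to each library by natural splines (5 degrees of freedom). The steps were tested on simulated data. Counts behave as reads, not independent molecules, so intervals and floors cover counting error only. Alternatives were DESeq2 1.42.0, other scalings and filters, a replicate block, the GC and length correction, each library left out and a stricter threshold. Counts of replicate libraries differed by more than sampling noise, and no library was counted as a repeat. Tables and figures were made with Python 3.11.15, pandas 2.3.3, numpy 2.4.6, scipy 1.17.1 and matplotlib 3.10.9.

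The members and all lists (other and fused-type S100 genes, partners and receptors, other EF-hand genes, the chromosome 1 region and the cell type markers) were chosen with earlier results of these data known. Named were all members, GFI1, the tested S100 and fused-type genes, a fixed part of the partners, and the 3 or 4 largest rises and falls with a mean of at least 100 normalized counts among called partners, other EF-hand genes and region genes. Some values of the marker lists are not reported here.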

Additional observations from a re-analysis of the deposited data

How the results depend on the processing

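The count of members called higher lay between 7 and 9, and their median log2 fold change between 1.20 and 1.61, over all alternatives. S100B was called lower in the fit as reported but 0 members were without a filter, with DESeq2 or at a threshold of 0.01, and 0 to 1 when a library was left out (0 without WT replicate 2, WT replicate 3, GFI1-KO replicate 1 or GFI1-KO replicate 3). The log2 fold change of GFI1 was 0.27 with upper-quartile factors (adjusted p = 0.0545) and 0.31 with DESeq2 (adjusted p = 0.127), and 0.21 to 0.43 with a library left out, its call being lost without WT replicate 2, WT replicate 3 or GFI1-KO replicate 2.

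The GC and length correction moved most. Alone, and then with the replicate block, other S100 genes called higher numbered 1 and 1, partners called lower 6 and 5, and the log2 fold changes were 0.21 (adjusted p = 0.150) and 0.21 (0.151) for GFI1, -0.31 and -0.30 for AGER, 0.0892 and 0.0888 for CACYBP, 0.19 and 0.18 for IQGAP1, 0.0590 and 0.0591 for S100PBP, 0.0147 and 0.0155 for SYT1, and -0.0321 and -0.0293 for HRNR. Without a library HRNR lay between -0.0112, without WT replicate 3, and 0.24 (-0.00116 without GFI1-KO replicate 1). FGF1 lost its call with DESeq2 and with block and correction together. The cause of these changes was not tested.

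Same-numbered libraries of the groups did not deviate together over 11867 genes (correlations -0.00337, 0.0168 and 0.0230), so the numbers give no pairing. With the replicate block alone 9 members were called higher and 1 lower, S100P being the added call, and GFI1 had a log2 fold change of 0.32 (adjusted p = 0.0312). Among the tested genes named here, depth limits S100P, S100B, FGF1, DLC1, HRNR, CDH1 and BX470102.1, with at most 62 counts in a library.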

Other observations

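Other genes with EF-hands, the calcium-binding fold of the S100 proteins, were read from a list of 56, of which 44 were tested. Of these 18 rose, 17 fell and 9 did not pass, shares of 40.9% and 38.6% against 36.5% and 35.9% of all tested genes, with a median log2 fold change of -0.04. CIB2, a calcium- and integrin-binding protein, rose from a normalized mean of 263 ± 24.3 to 848 ± 53.0 (n = 3, log2 fold change 1.69, edgeR adjusted p = 8.4e-17), and its relative CIB1 rose by 0.92 (adjusted p = 2.1e-12). MYL6, the essential light chain of non-muscle myosin, rose from 2837 ± 233 to 8645 ± 128 (n = 3, 1.61, edgeR adjusted p = 1.3e-21), and NUCB1, a calcium-binding protein of the Golgi, rose by 0.86 (adjusted p = 1.6e-15). With the GC and length correction CIB2 was at 1.05, CIB1 at 0.63, MYL6 at 1.53 and NUCB1 at 0.41.

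CALB1 (calbindin), a calcium buffer of neurons, fell from a normalized mean of 1499 ± 11.7 to 187 ± 2.63 (n = 3, log2 fold change -3.005, edgeR adjusted p = 1.4e-23). HPCAL4, a neuronal calcium sensor, fell from 547 ± 36.2 to 169 ± 14.6 (n = 3, -1.70, edgeR adjusted p = 1.7e-15). The penta-EF-hand genes SRI (sorcin) and GCA (grancalcin) fell by 0.95 (edgeR adjusted p = 2.0e-14) and 0.81 (adjusted p = 1.4e-09), and with the GC and length correction GCA no longer passed (-0.17, adjusted p = 0.0539) while the other 7 genes named here did, SRI at a smaller value (-0.42).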
